A study of Mus musculus with 17 samples.

Results

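The nuclei described here are excitatory neurons of the mouse posterior brain that carried many transcripts of Foxp2, a forkhead transcription factor. They were chosen from the counts themselves, as unique molecular identifiers (UMIs, counted RNA molecules) per nucleus. A nucleus was taken if the deposited metadata called it a neuron and not a doublet, if it lay outside deposited cluster 13, and if it passed 7 limits. It had to hold at least 3 UMIs of Slc17a7, the vesicular glutamate transporter of cortical excitatory neurons, and at least 5 of Foxp2. It could hold at most 1 UMI of Gad1 and Gad2 together, 2 of Rorb, and 1 each of Prox1, Tcf7l2 and Slc17a6. The rule found 738 nuclei of 284074 in the series and of 8402 that passed the same limits without those on Foxp2 and Rorb. All 17 animals contributed nuclei. The position of a nucleus in the cortex was not measured. Because measured counts chose these nuclei, their levels against other neurons are given as a description, with no test.

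All 17 mice were females of 2.3 months, homozygous for a knock-in of the human transferrin receptor (TfR), a receptor on brain capillaries that antibodies can use to enter the brain. They received 4 intravenous doses of an injected article over 24 days, and the posterior brain was taken 72 h after the last dose. Saline went to 4 mice, a free antisense oligonucleotide against the nuclear long noncoding RNA Malat1 (Malat1 ASO, 2 mg/kg) to 4, an antibody carrier of the oligonucleotide (anti-TfR:Malat1, 50 mg/kg) to 6, and an oligonucleotide transport vehicle (OTV:Malat1, 50 mg/kg) to 3. The series text calls the free dose equivalent in oligonucleotide to the carrier doses, and each sample is 1 mouse. An oligonucleotide of this kind pairs with its RNA in the nucleus and directs its cleavage by RNase H, so the groups ask how far Malat1 was lowered in a given kind of cell. All groups carry the knock-in, and each article was given at 1 dose level.

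In the cerebral cortex Foxp2 is best known in layer 6, in neurons that send axons to the thalamus. These corticothalamic neurons sit among intratelencephalic, near-projecting and layer 6b cells, express the Groucho-family corepressor Tle4, and return cortical output to the thalamic nuclei that feed the same area. Foxp2 lies on chromosome 6 (GRCm38, chr6:14901349-15441977, plus strand), Tle4 on chromosome 19 (chr19:14448150-14598051, minus strand) and Slc17a7 on chromosome 7 (chr7:45163949-45176142, plus strand), all annotated as protein-coding genes. Malat1 also lies on chromosome 19 (chr19:5795690-5802672, minus strand). It is retained in nuclear speckles and is among the most abundant RNAs of neuronal nuclei.

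Over the selected nuclei the median was 7 Foxp2 UMIs, with a highest value of 22, and the median was 3 Slc17a7 UMIs, with a highest value of 9. Exactly 3 Slc17a7 UMIs were counted in 445 of the 738 nuclei (60.3%), and 5684 further neurons failed that limit alone. Only the Foxp2 limit kept out 6582 nuclei, and only the limits on Rorb, Tcf7l2 and Slc17a6 kept out 7, 2 and 1. No nucleus was lost to the limits on Gad1 with Gad2 or on Prox1 alone, and 152 were lost to the doublet call alone. The selected nuclei were deep for this data set, with a median of 6464 UMIs and a range of 2379 to 15730. Other excitatory nuclei, which passed the same limits except the one on Rorb and held at most 1 Foxp2 UMI (7073 nuclei, of which 1052 had 3 or more Rorb UMIs), had a median of 6542, and all neurons had a median of 4283. Among the selected nuclei alone, no barcode occurred in more than 1 animal. Over all nuclei, 10044 of 273792 distinct barcodes did. Whether a selected nucleus shared its barcode with an unselected nucleus of another animal was not examined.

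Nuclei just inside and just outside the Foxp2 limit had similar levels of Tle4, Hs3st4 and Malat1, in values pooled over animals that carry no spread. The 170 nuclei with exactly 5 Foxp2 UMIs had Tle4 at 565 CPM (counts divided by the total count and scaled to 1000000) and Hs3st4 at 2676. The 177 nuclei with exactly 4, just outside, had Tle4 at 606 and Hs3st4 at 2895 CPM. Tshz2, a marker of near-projecting neurons, stood at 97.7 CPM inside and 37.1 outside. Malat1 took 6.47% and 6.49% of their UMIs. Inside the limit, the 169 nuclei with 10 or more Foxp2 UMIs were deeper (median 8074 UMIs against 5610 at exactly 5), and Tle4 stood at 571 CPM in them.

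The genes of deep cortical corticothalamic neurons marked these nuclei. A list of 20 such genes was used, and the 19 that the rule did not use summed to 12779 CPM in the Foxp2-positive nuclei, 3408 in other excitatory nuclei and 2114 in the 1052 Rorb-positive excitatory nuclei. Of the 19, 18 were higher on average than in other excitatory nuclei, and 17 were higher in every animal. Tle4 averaged 547 ± 79.8 CPM (SD, n = 17 animals) against 100, and it was detected in 93.8% of the Foxp2-positive nuclei, 35.4% of other excitatory nuclei and 9.37% of oligodendrocyte nuclei, whose median depth was only 1252 UMIs. Syt6, a synaptotagmin, averaged 110.4 against 2.77 CPM and was detected in 48.1% against 1.53% of nuclei, with 0.301% of oligodendrocyte nuclei as a background. Every one of the 738 nuclei held UMIs of at least 4 of the 19 genes, with a median of 12.

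Transcription factors of deep-layer identity were among the 18. Sox5 averaged 623 against 313 CPM, Nfia 704 against 183 CPM and Bcl11b 194 against 89.9 CPM, in Foxp2-positive against other excitatory nuclei. Fezf2 averaged 29.6 against 7.64 CPM, and Tbr1, a T-box factor needed for the corticothalamic fate, 29.9 against 11.3 CPM. All 5 were higher in all 17 animals. The exception in the list was Ntng2, which encodes netrin-G2: it averaged 0.199 against 80.9 CPM and was lower in every animal.

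Ranked by ratio to other excitatory nuclei among genes of at least 50 CPM, the leading 25 genes were Syt6, Col5a1, Arhgap25, Ddah1, Rell1, Gm10635, Rnf152, Cpa6, Cdh18, Glra2, Trabd2b, Ptk7, Rai14, Garnl3, Tle4, Grik3, Gng12, Itga5, Zfpm2, Dlc1, Ephb1, Hs3st5, Sdk2, Pitpnc1 and Hs3st4. Several stood above 1000 CPM. Hs3st4, a heparan sulfate sulfotransferase, averaged 2987 against 657 CPM, and the adhesion gene Cdh18 2934 against 412 CPM. Zfpm2, a zinc-finger cofactor of GATA factors, averaged 1558 against 305 CPM, Garnl3 1192 against 200.4 CPM. The GTPase-activating gene Dlc1 averaged 970.4 against 191 CPM. Grik3, a kainate receptor subunit, averaged 438 against 80.3 CPM, the ephrin receptor gene Ephb1 375 against 76.5 CPM and the glycine receptor subunit gene Glra2 98.8 against 14.2 CPM. Of the 25, 23 were higher in all 17 animals. Gm10635 was higher in 15 and Cpa6 in 16, and each had 0 CPM in at least 1 animal.

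The 10 genes lowest against other excitatory nuclei were Ntng2, 9530026P05Rik, Rtn4rl1, Ndst4, Tafa1, Trpc5, Palmd, Pparg, Cux2 and Epha6. Tafa1, a secreted neurokine gene, averaged 25.3 against 1981 CPM, and Epha6, an ephrin receptor gene, 34.9 against 2005 CPM. The cation channel gene Trpc5 averaged 2.44 against 189 CPM. Cux2, a transcription factor of upper-layer neurons, averaged 2.09 against 140.0 CPM. In all, 144 of 3230 genes at 50 CPM or more stood at 2 times or more the level of other excitatory nuclei, and 29 at 4 times or more. In the opposite direction, 265 of 3289 genes at 50 CPM or more in other excitatory nuclei stood there at 2 times or more the level of the Foxp2-positive nuclei.

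**Figure D1:**
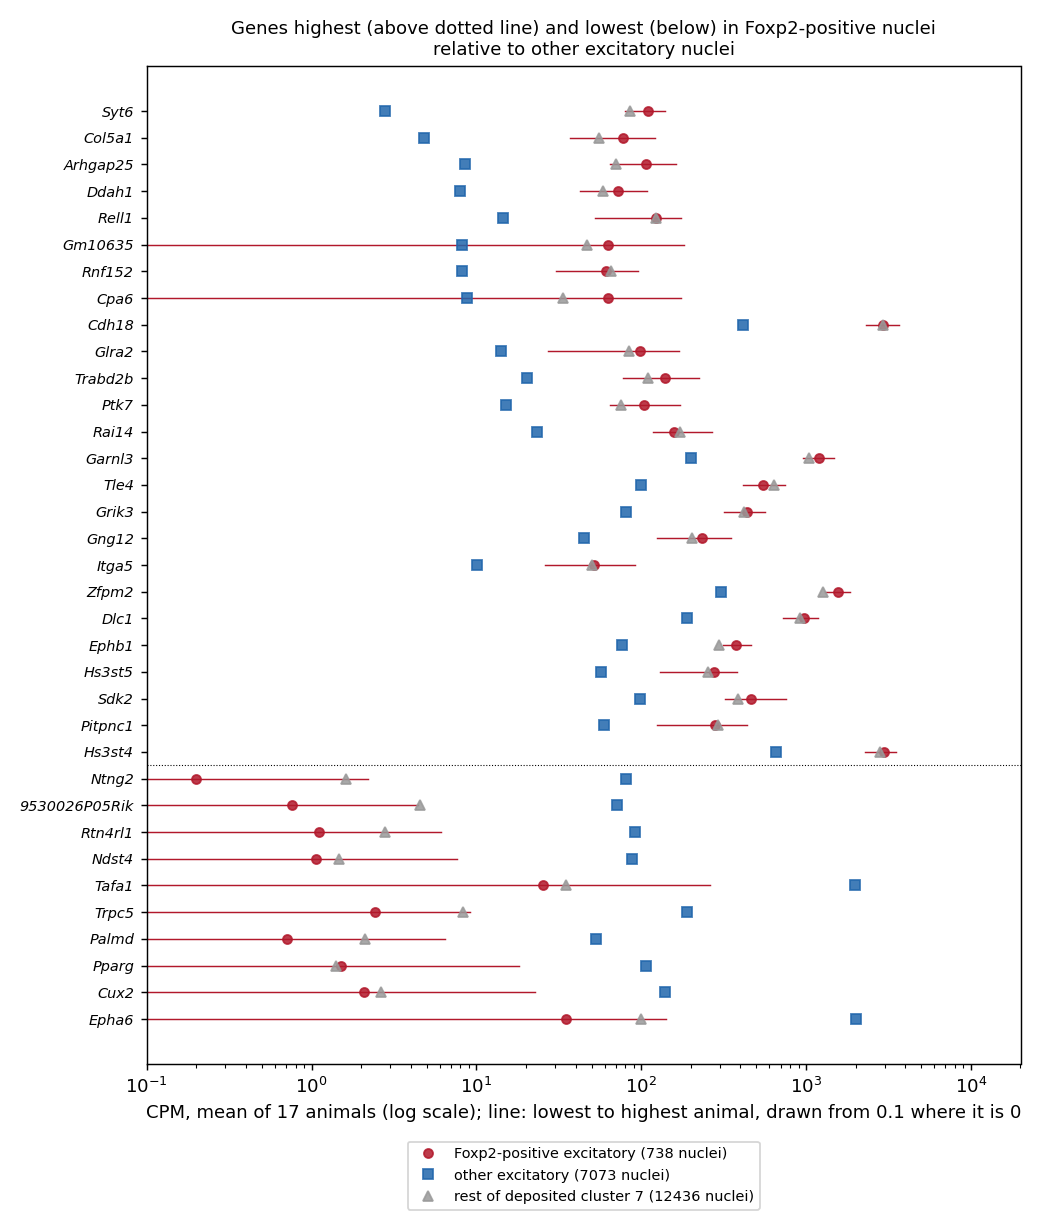
Mean CPM over 17 animals, on a log axis, of the 25 leading and 10 lowest genes in Foxp2-positive excitatory nuclei (red circles, with a line from the lowest to the highest animal), other excitatory nuclei (blue squares) and the rest of deposited cluster 7 (grey triangles). For most genes the red circle sits close to the grey triangle and away from the blue square, as for Syt6 at 110.4, 85.4 and 2.77 CPM.

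Most of the selected nuclei came from 1 deposited cluster. Cluster 7 held 709 of the 738 (96.1%), cluster 6 held 26, cluster 1 held 2 and cluster 18 held 1. They made up 5.39% of the 13145 nuclei of cluster 7, in which 3858 (29.3%) had 5 or more Foxp2 UMIs and 1613 (12.3%) had 3 or more Slc17a7 UMIs. The other 12436 nuclei of cluster 7 were shallower (median 4502 UMIs). Their profile was close: 94.7% of the 3230 genes lay between 0.8 and 1.25 times their level, against 67.5% for other excitatory nuclei. The 19 corticothalamic genes summed to 11806 CPM there, against 12779 in the Foxp2-positive nuclei. Tle4 was higher there (640 against 547 CPM) and was detected in 88.7% against 93.8% of nuclei. The rest of the cluster differed in genes of near-projecting neurons, with Tshz2 at 670.2 CPM against 18.9 in the Foxp2-positive nuclei and Vwc2l at 229 against 9.56. The 26 nuclei from cluster 6 came from 11 animals, were deep (median 9687 UMIs) and held Tshz2 at 206 CPM, a value pooled over animals. Few nuclei may carry it: 14 of all 738 selected nuclei held 3 or more Tshz2 UMIs, and the highest count in 1 nucleus was 49.

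The summed levels of marker lists for other cortical, hippocampal and thalamic neurons were below those of other excitatory nuclei, while single markers went both ways. Without the genes of the rule, the intratelencephalic list summed to 544 against 1472 CPM, the near-projecting list to 205 against 453 and the layer 5 extratelencephalic list to 76.6 against 155. The last sum covers 10 of 11 listed genes. It leaves out Fam19a1, an older symbol of Tafa1, which stood at 25.3 against 1981 CPM. The layer 6b list summed to 197 against 246 CPM, but 6 of its 9 genes were higher and 3 lower. Its 4 most abundant genes were Inpp4b (149 against 205 CPM), Svil (13.7 against 10.6 CPM), Lpar1 (12.7 against 11.6 CPM) and Drd1 (8.57 against 4.85 CPM), and no layer 6b gene differed in 1 direction in all 17 animals. Hippocampal genes summed to 989 against 2321 CPM, thalamic or midbrain genes to 618 against 1147 and claustrum or subplate-like genes to 74.8 against 281. In the intratelencephalic list 13 of 15 genes were lower, in the near-projecting list 8 of 8 and in the hippocampal list 9 of 11. A pair of genes were higher in every animal: Sulf1, a sulfatase of the intratelencephalic list, at 136 against 38.9 CPM, and Mpped1, of the hippocampal list, at 152 against 89.1 CPM.

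Oligodendrocyte transcripts were present at a low level in the Foxp2-positive nuclei, as in other neurons. UMIs of Mbp, a myelin gene, were found in 22.0% of the Foxp2-positive nuclei, against 30.0% of other excitatory nuclei and 97.3% of oligodendrocyte nuclei. The 11 oligodendrocyte genes summed to 168 CPM, 181 in other excitatory nuclei and 19343 in oligodendrocytes. The astrocyte list summed to 861 CPM against 455, of which Slc1a2, a glutamate transporter gene, made up 759 against 294. Slc4a4, a bicarbonate transporter gene, was next at 88.6 against 131 CPM. The other 7 of the 9 genes lay between 0.0684 CPM for Aqp4 and 4.00 for Aldh1l1, with Gfap at 0.377 and Slc1a3 at 1.52 CPM. UMIs of 3 or more oligodendrocyte genes were found in 49 of the 738 nuclei (6.64%). Microglial genes summed to 56.2 CPM and oligodendrocyte precursor genes to 11.9. Of 10 vascular genes 6 had no UMI in any of the 738 nuclei, and the list summed to 1.44 CPM. The 9 further inhibitory-neuron genes summed to 112 CPM against 197 in other excitatory nuclei, with 4 genes higher and 5 lower in the Foxp2-positive nuclei. Adarb2 had UMIs in 127 of the 738 nuclei (17.2%), and 31 nuclei held 3 or more. Erbb4 had UMIs in 65 nuclei (8.81%) and Sst in 50 (6.78%), while Lhx6 had none. Which part of these levels came from RNA outside the nucleus counted was not tested.

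**Figure D2:**
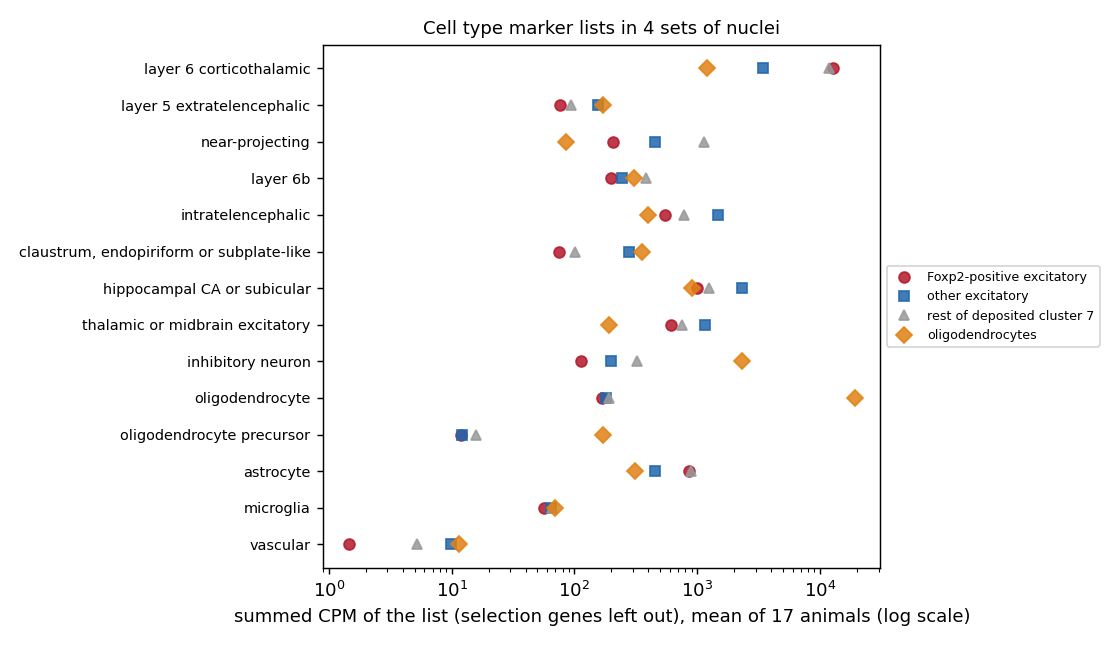
Summed CPM of 14 cell type marker lists (mean of 17 animals, log axis), leaving out the genes used for selection, in Foxp2-positive excitatory nuclei, other excitatory nuclei, the rest of deposited cluster 7 and oligodendrocytes. The Foxp2-positive nuclei stand highest of the 4 in the layer 6 corticothalamic list (12779 CPM) and lowest in the vascular list (1.44 CPM).

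Receptor and channel genes differed between the Foxp2-positive and the other excitatory nuclei in both directions. Of 23 glutamate receptor genes, 9 were higher and 14 lower on average than in other excitatory nuclei, with 4 higher and 10 lower in all 17 animals. The most abundant by CPM were the NMDA receptor subunits Grin2a (1556 against 1966 CPM) and Grin2b (1493 against 1722 CPM) and the AMPA receptor subunits Gria2 (1462 against 1426 CPM) and Gria3 (1406 against 903 CPM). Gria3 was among the 4 that were higher in every animal, with Grik3 and the metabotropic receptor genes Grm3 (687 against 273 CPM) and Grm8 (1159 against 323 CPM). Grm7 (1081 against 2286 CPM) and Grm5 (1101 against 1968 CPM) were lower in every animal.

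Potassium channel genes summed to 0.544 times the level of other excitatory nuclei. The most abundant were Kcnh7 (2489 against 1643 CPM), Kcnip4 (2414 against 10106 CPM), Kcnma1 (2194 against 1735 CPM) and Kcnd2 (1692 against 2351 CPM). Kcnip4, an auxiliary subunit of A-type channels, and Kcnd2, a pore subunit of such channels, were lower in every animal, while Kcnh7 and the calcium-activated channel gene Kcnma1 were higher in every animal. Of 26 synaptic adhesion genes, 5 were higher and 21 lower on average, and 4 and 16 were so in all 17 animals. Nrxn3, a presynaptic neurexin gene, averaged 7963 against 5176 CPM and the cell adhesion gene Cadm2 3222 against 4149 CPM. Homer1 (832 against 461 CPM) and Arc (91.7 against 40.9 CPM) were the 2 of 17 immediate early genes that were higher in every animal, and Nr4a1 (97.1 against 74.2 CPM) and Egr1 (76.8 against 43.8 CPM) completed the 4 most abundant.

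The number of selected nuclei per animal varied widely. Saline animals gave 105, 41, 19 and 19 nuclei, Malat1 ASO animals 55, 24, 29 and 25, anti-TfR:Malat1 animals 62, 95, 44, 28, 45 and 67, and OTV:Malat1 animals 20, 32 and 28, in replicate order. The deposited metadata name 4 batches, whose meaning is not stated, and the highest saline and Malat1 ASO numbers both came from batch 1. Batch 1 held no OTV:Malat1 animal. As a share of excitatory nuclei the selected ones made up 9.55, 9.11, 5.57 and 6.62% in the saline animals and 6.57, 9.30, 8.73 and 9.26% in those given Malat1 ASO. They made up 10, 11.8, 7.61, 6.73, 8.17 and 13.8% in the anti-TfR:Malat1 animals and 7.07, 8.79 and 6.60% in the OTV:Malat1 animals. All 4 groups overlapped. In the same order, the group means were 7.71 ± 1.93% (SD, n = 4), 8.47 ± 1.29% (n = 4), 9.69 ± 2.72% (n = 6) and 7.49 ± 1.15% (n = 3).

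No difference in share passed a two-sided exact permutation test over animals. The difference from saline was -0.23 percentage points for OTV:Malat1 (exact p = 0.914, smallest possible 0.0571), 0.75 for Malat1 ASO (exact p = 0.600) and 1.97 for anti-TfR:Malat1 (exact p = 0.248). Between the carriers, OTV:Malat1 minus anti-TfR:Malat1, it was -2.20 points (exact p = 0.238). Adjusted over the 4 comparisons these exact p-values were 0.495 or higher. Within batches anti-TfR:Malat1 stood above saline in each of the 4, on average by 2.27 points (permutation p within batches = 0.0556, the smallest that arrangement allows). The rule asks for set numbers of UMIs, and the selected nuclei differed in depth between groups. The animals' median UMI number per selected nucleus averaged 6843 ± 854 in saline and 5752 ± 401 in OTV:Malat1. With every neuron thinned to 2000 UMIs (16613 shallower ones left out) and limits of 2 Slc17a7 and 2 Foxp2 UMIs, anti-TfR:Malat1 differed from saline by -0.62 points.

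**Figure D3:**
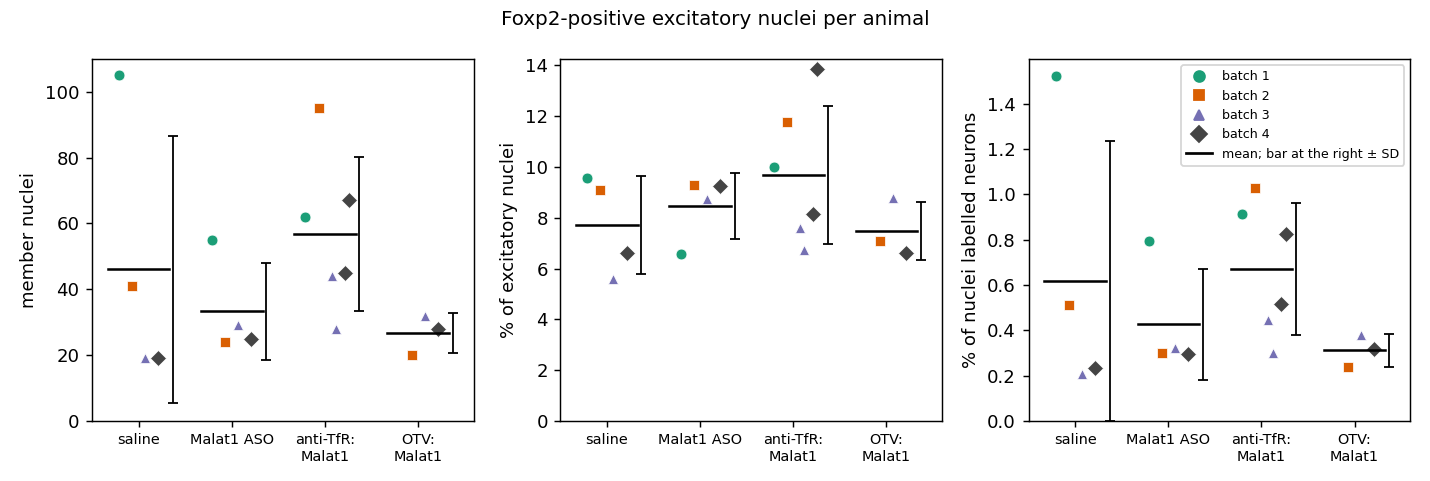
Number of Foxp2-positive excitatory nuclei per animal (left), their share of excitatory nuclei (middle) and of nuclei labelled neurons (right), with the group mean as a line and the SD as a bar; symbols mark the 4 batches. The numbers run from 19 to 105 nuclei and the groups overlap in all 3 panels.

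Mean Malat1 in the Foxp2-positive nuclei was lowest in the OTV:Malat1 animals, at 73.4% of the saline mean, and no difference between groups passed the test. In the selected nuclei Malat1 took 7.19, 7.03, 7.93 and 4.31% of all UMIs in the saline animals and 7.51, 6.44, 7.40 and 4.36% in the Malat1 ASO animals, in replicate order. The anti-TfR:Malat1 animals had 4.53, 6.48, 7.46, 6.77, 5.60 and 5.74% and the OTV:Malat1 animals 5.29, 5.57 and 3.696%. The OTV:Malat1 animals lay below 3 of the 4 saline animals, and only 1 of them lay below all 4. The low saline and Malat1 ASO values, 4.31% and 4.36%, both belonged to batch 4, as did the lowest OTV:Malat1 value. The group means were 4.85 ± 1.01% for OTV:Malat1 (SD, n = 3), 6.10 ± 1.03% for anti-TfR:Malat1 (n = 6), 6.42 ± 1.46% for the free ASO (n = 4) and 6.62 ± 1.58% for saline (n = 4).

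On a log2 scale OTV:Malat1 differed from saline by -0.43 (two-sided exact permutation test over animals, p = 0.171; the smallest p for 3 against 4 animals is 0.0571). The differences of anti-TfR:Malat1 and Malat1 ASO from saline were -0.10 (exact p = 0.629) and -0.04 (exact p = 0.8). OTV:Malat1 minus anti-TfR:Malat1 was -0.33 (exact p = 0.143), OTV:Malat1 minus Malat1 ASO -0.40 (exact p = 0.229) and anti-TfR:Malat1 minus Malat1 ASO -0.06 (exact p = 0.762). Over these 6 comparisons the lowest adjusted exact p was 0.457. Without OTV:Malat1 replicate 3 the difference from saline was -0.25 (exact p = 0.4) and that from anti-TfR:Malat1 -0.15 (exact p = 0.429), and without saline replicate 4 the former was -0.63 (exact p = 0.1). The comparisons with saline share the 4 saline animals.

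Inside the batches the order was regular for OTV:Malat1. Its animal lay below the saline animal of the same batch in all 3 batches that held both, with log2 differences of -0.41, -0.51 and -0.22 in batches 2, 3 and 4. It lay below the anti-TfR:Malat1 mean of the same batch as well, with differences of -0.29, -0.35 and -0.62. In a permutation test within batches, the average differences were -0.38 (p = 0.250) and -0.42 (p = 0.111), each the smallest p the arrangement allows. Anti-TfR:Malat1 lay below saline in batches 1, 2 and 3, with differences of -0.67, -0.12 and -0.16, and above it in batch 4, with 0.39. Without the animals of batch 1, OTV:Malat1 against anti-TfR:Malat1 was -0.42 (exact permutation p = 0.0357, the smallest that 3 against 5 animals allow, not adjusted). For this comparison batch 1 held only anti-TfR:Malat1 replicate 1, the lowest of its group, so only that animal was left out.

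edgeR's quasi-likelihood test over 4074 genes did not call Malat1 in any comparison. Malat1 differed by -0.46 (log2, SE 0.176) between OTV:Malat1 and saline, with an unadjusted p of 0.0137 and an adjusted p of 0.970. Between OTV:Malat1 and anti-TfR:Malat1 edgeR gave -0.35 (SE 0.164, adjusted p = 0.925), and against saline -0.11 (SE 0.147) for anti-TfR:Malat1 and -0.03 (SE 0.161) for Malat1 ASO. With the batch as a term, edgeR gave -0.46 for OTV:Malat1 against saline (unadjusted p = 9.00e-04, adjusted p = 0.734) and -0.40 against anti-TfR:Malat1 (unadjusted p = 0.00163, adjusted p = 0.501). In all nuclei of deposited cluster 7 the edgeR difference was -0.59, and without the Slc17a7 minimum (6422 nuclei) it was -0.47.

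Malat1 in other cells of the same animals is given for comparison. The OTV:Malat1 mean of other excitatory nuclei was 67.2% of their saline mean, that of Rorb-positive nuclei 64.8%, and that of oligodendrocytes 15.3%. Oligodendrocytes of the OTV:Malat1 animals had Malat1 at 1.81, 1.54 and 1.399% of UMIs, below every saline animal (7.89% to 12.2%). Their difference from the Foxp2-positive nuclei in this respect was not tested. Malat1 took a smaller share in the Foxp2-positive than in the other excitatory nuclei of each of the 17 animals, which is a description of the selected cells. Against Rorb-positive nuclei its share was larger in saline replicate 3, Malat1 ASO replicate 1 and all 3 OTV:Malat1 animals. Over all nuclei of cluster 7 the saline mean was 6.44%, against 6.62% in the Foxp2-positive nuclei. The gap to other excitatory nuclei was narrower in OTV:Malat1 (-0.126 ± 0.0619 log2, n = 3) than in saline (-0.248 ± 0.0501, n = 4). The difference of 0.12 did not pass the two-sided exact permutation test (p = 0.114, adjusted over 4 comparisons 0.229). With 3 against 4 animals that test cannot pass 0.05, since its smallest p is 0.0571. Against anti-TfR:Malat1 the difference was 0.11 (exact p = 0.0714), and with Rorb-positive nuclei as the comparator 0.26 (exact p = 0.0238, the smallest that 3 against 6 animals allow, not adjusted). Of 50 alternative values of the gap, this 1 came past the threshold. Foxp2-positive against Rorb-positive nuclei had Malat1 at 5.29 against 5.10%, 5.57 against 4.43% and 3.696 against 3.681% in OTV:Malat1, so replicate 2 stood apart. The saline animals had 7.19 against 7.82%, 7.03 against 7.27%, 7.93 against 7.63% and 4.31 against 4.47%.

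**Figure D4:**
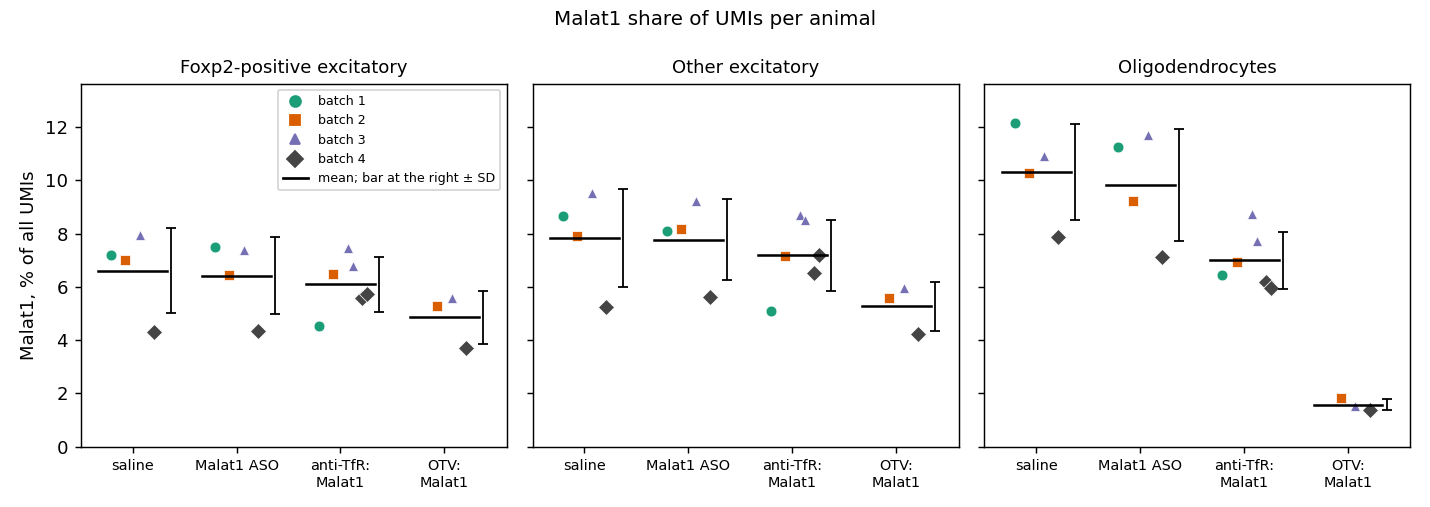
Malat1 as a percentage of all UMIs in each animal, for Foxp2-positive excitatory nuclei, other excitatory nuclei and oligodendrocytes, with the group mean as a line and the SD as a bar; symbols mark the 4 batches. In Foxp2-positive nuclei OTV:Malat1 animals lie between 3.696% and 5.57% and overlap the saline range, and in oligodendrocytes they lie between 1.399% and 1.81%.

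The spread between nuclei was read after thinning each to 1000 UMIs, which every selected nucleus could give. At the 10th percentile of each animal's nuclei, Malat1 stood at 54.4, 55, 57.4 and 30 UMIs per 1000 in the saline animals and 57.8, 51.3, 57.8 and 33 in the Malat1 ASO animals. The anti-TfR:Malat1 animals had 27.3, 46, 59, 46.2, 42.4 and 46.2 and the OTV:Malat1 animals 33.6, 32 and 17.4. The saline and Malat1 ASO animals of batch 4 and the first anti-TfR:Malat1 animal lay in the OTV:Malat1 range. Relative to saline the OTV:Malat1 mean was 56.2% at the 10th percentile, 78.5% at the median and 76.7% at the 90th. On a log2 scale the 10th percentile differed by -0.82 from saline (exact permutation p = 0.171) and by -0.69 from anti-TfR:Malat1 (exact p = 0.0714, adjusted 0.286). Anti-TfR:Malat1 and Malat1 ASO differed from saline by -0.13 and 0.03 (exact permutation p = 0.638 and 0.771). Without the first anti-TfR:Malat1 animal, the difference between the carriers was -0.82 (exact p = 0.0357, the smallest that 3 against 5 animals allow). Without OTV:Malat1 replicate 3 the differences from saline and from anti-TfR:Malat1 were -0.53 and -0.40 (exact p = 0.4 and 0.214). At the 25th percentile OTV:Malat1 differed less, by -0.40 from saline and by -0.31 from anti-TfR:Malat1. As few as 19 nuclei stood behind an animal's percentile.

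**Figure D5:**
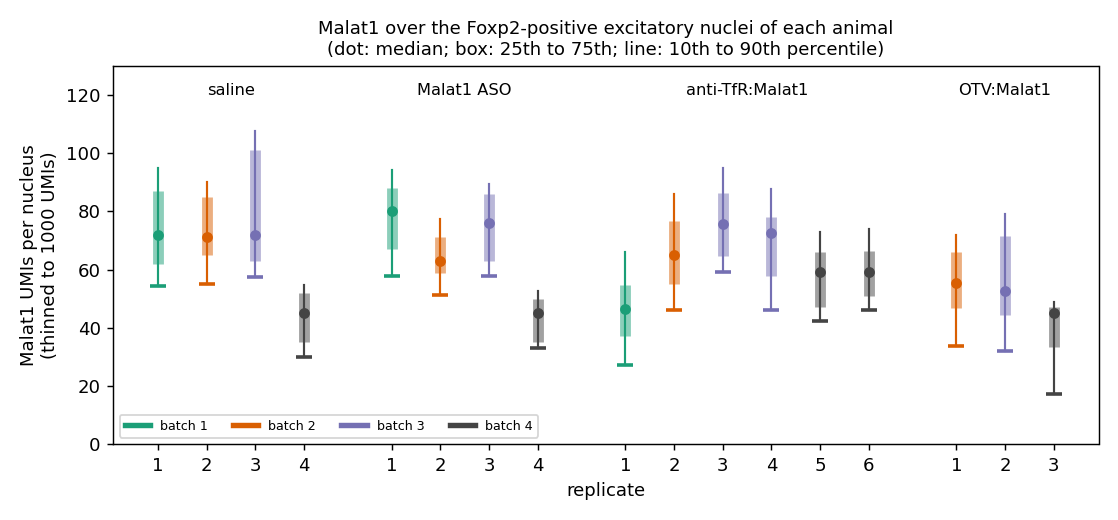
Malat1 UMIs per nucleus after thinning to 1000 UMIs, for the Foxp2-positive excitatory nuclei of each animal: dot at the median, box from the 25th to the 75th percentile, line from the 10th to the 90th; colours mark batches. The 10th percentile of OTV:Malat1 replicate 3 is 17.4, the lowest of the 17 animals.

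No gene, Malat1 included, passed the test across genes in these nuclei. edgeR called 0 of 4074 genes at an adjusted p under 0.05 in each of the 4 comparisons (0%), and DESeq2 also called 0. At an unadjusted p under 0.05 edgeR found 201 genes between OTV:Malat1 and saline (4.93%), 112 higher and 89 lower. It found 91 (2.23%) between anti-TfR:Malat1 and saline, 93 (2.28%) between Malat1 ASO and saline and 195 (4.79%) between OTV:Malat1 and anti-TfR:Malat1. DESeq2 found 109, 43, 47 and 127. The smallest adjusted p by edgeR was 0.342, 1.00, 0.999 and 0.261. The counts rest on 109612 to 860185 UMIs per animal, and genes too low for the filter were not tested.

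The genes of corticothalamic identity stood at similar levels in the 4 groups. Without Foxp2, which chose the nuclei, the list summed to 12854 CPM for OTV:Malat1, 12769 for anti-TfR:Malat1, 12955 for the free ASO and 12563 for saline. Of its 19 other genes 14 were abundant enough to test, and edgeR called 0 in every comparison. Their log2 changes were 8 above 0 and 6 below, with a median of 0.02, for OTV:Malat1 against saline, where the median of all 4074 genes was 0.02. For anti-TfR:Malat1 against saline they were 13 above 0 and 1 below, with a median of 0.04, where all genes were 2040 above and 2034 below. For Malat1 ASO against saline they were 9 above 0 and 5 below, with a median of 0.06, where all genes were 2126 above and 1948 below. Between the carriers they were 6 above 0 and 8 below, with a median of -0.02. Tle4 stood at 517, 742, 429 and 413 CPM in saline and 554, 551 and 552 in OTV:Malat1. The 3 OTV:Malat1 values lie inside the saline range. edgeR gave Tle4 a log2 difference of 0.01 (SE 0.172, adjusted p = 0.999) and Hs3st4 one of 0.03 (SE 0.134, adjusted p = 0.999). Of the 14, only Sema5a, a semaphorin gene, had an unadjusted p under 0.05 in OTV:Malat1 against saline, where 4.93% of all genes did. The same held between the carriers, where 4.79% of all genes did. Sema5a was at 112, 64.2 and 84.4 CPM in OTV:Malat1 against 164, 93.6, 164 and 135 in saline (edgeR log2 -0.74, adjusted p = 0.970, and -0.79 between the carriers, adjusted p = 0.925). The groups overlapped. In Malat1 ASO against saline, where 2.28% of all genes had such a p, the only one was Rgs6, a regulator of G-protein signalling, at 0.26 (edgeR adjusted p = 0.999).

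Other nuclear RNAs, and genes that encode proteins of nuclear speckles and paraspeckles, were examined next. Meg3, the most abundant of the other long noncoding RNAs at 5749 CPM, gave log2 0.01 (SE 0.0994) for OTV:Malat1 against saline, and the others of the 4 most abundant were Snhg11, Xist and Snhg14. Over the 13 long noncoding RNAs tested, log2 changes were 6 above 0 and 7 below, with a median of -0.01. None of the 13 had an unadjusted p under 0.05 in OTV:Malat1 against saline, where 4.93% of all genes did. Rian had one in Malat1 ASO against saline (0.28, edgeR adjusted p = 0.999) and Gm26917 between the carriers (-0.71, edgeR adjusted p = 0.925). Neat1, the scaffold of paraspeckles and a neighbour of Malat1 on chromosome 19 (chr19:5824708-5845478), averaged 4.67 ± 4.37 CPM for OTV:Malat1, 4.45 ± 4.60 for anti-TfR:Malat1, 7.73 ± 5.42 for the free ASO and 9.23 ± 6.93 for saline (SD), with 0 UMIs in at least 1 animal of each group, and was too low to test. The 15 genes beside Malat1 were also all too low to test. Of 20 nuclear speckle and splicing factor genes 18 were tested, led by Srrm2, Srsf11, Prpf4b and Son, with log2 changes 6 above 0 and 12 below, with a median of -0.07, in OTV:Malat1 against saline. Against the same saline animals they were 7 above 0 and 11 below, with a median of -0.05, for anti-TfR:Malat1 and 7 above 0 and 11 below, with a median of -0.06, for the free ASO, and between the carriers 10 above 0 and 8 below, with a median of 0.01. The kinase gene Clk4 alone had an unadjusted p under 0.05 in OTV:Malat1 against saline (-0.72, edgeR adjusted p = 0.996). Of 10 paraspeckle protein genes 8 were tested, among them Sfpq and Ewsr1, and Pspc1 gave 0.60 (edgeR adjusted p = 0.970).

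Genes of RNase H, nuclear RNA decay and iron handling gave no call, and most of them were too low to test. Of 12 genes of RNase H and nuclear RNA decay 4 were tested (Zfc3h1, Xrn2, Pabpn1 and Zcchc8, at 101, 97.5, 90.7 and 39.5 CPM), and none had an unadjusted p under 0.05 by edgeR in any comparison. Over all genes the share that did was 2.23% to 4.93%, so so few genes say little. Rnaseh1, which encodes the enzyme that cuts RNA paired with DNA, stood at 11.04 CPM and was not tested. Mouse Tfrc, on chromosome 16 (chr16:32608920-32632794), averaged 16.6 ± 20.1 CPM for OTV:Malat1, 17.3 ± 5.96 for anti-TfR:Malat1, 25.8 ± 11.1 for the free ASO and 24.8 ± 13.4 for saline (SD), and was not tested. Whether transcripts of the human knock-in are counted under that name is not given in the sources used here. Of 15 iron-handling genes 3 were tested, namely Fth1, Fbxl5 and Ireb2, at 107, 101 and 53.2 CPM. None had an unadjusted p under 0.05 by edgeR in any comparison, where 2.23% to 4.93% of all genes did.

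Response genes showed no call either. None of 20 interferon response genes was abundant enough to test, and the list summed to 66.7 CPM over all animals, led by Stat2 at 33.1. Of 15 heat shock and unfolded protein response genes 4 were tested (Hsp90ab1, Hsp90aa1, Hspa8 and Hspa5). Hsp90aa1, a cytosolic chaperone gene on chromosome 12, was at 53.5, 32.3, 63.9 and 55.6 CPM in saline and 69.2, 128 and 104 in OTV:Malat1. It was at 97.9, 79.6, 68.3 and 58.8 in Malat1 ASO and 53.2 to 96.4 (median 78.3) in anti-TfR:Malat1. All 3 OTV:Malat1 animals lay above all 4 saline animals, and the share of all genes tested with such a separation was not counted. edgeR gave log2 1.07, 0.69 and 0.71 for OTV:Malat1, anti-TfR:Malat1 and Malat1 ASO against saline, comparisons that share the saline animals, with adjusted p of 0.593, 1.000 and 0.999. In all nuclei of deposited cluster 7 the OTV:Malat1 value was 0.21.

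Of 17 immediate early genes 9 were tested, and their log2 changes in OTV:Malat1 against saline were 7 above 0 and 2 below, with a median of 0.33. Against the same saline animals they were 6 above 0 and 3 below, with a median of 0.17, for anti-TfR:Malat1 and 6 above 0 and 3 below, with a median of 0.26, for the free ASO. Junb and Npas4, 2 of the 9, had an unadjusted p under 0.05 in OTV:Malat1 against saline, where 4.93% of all genes did, at 1.06 and 1.32 (edgeR adjusted p = 0.970 for both). Egr1 had one in Malat1 ASO against saline (0.97, edgeR adjusted p = 0.999) and Arc between the carriers (0.88, edgeR adjusted p = 0.925), where 2.28% and 4.79% of all genes did, and none did in anti-TfR:Malat1 against saline. Arc was at 77.8, 219 and 90.9 CPM in OTV:Malat1 and 57.0 to 113 in saline, with 1 OTV:Malat1 animal apart from the rest. Of 8 clock genes tested, Arntl gave -0.88 and Tef 0.67 (edgeR adjusted p = 0.970 for both). Between the carriers Arntl gave -0.69, Cry2 -0.74 and Tef 0.67 (edgeR adjusted p = 0.925, 0.925 and 0.925). Of 5 p53 target genes and 5 glucocorticoid-induced genes tested, Btg2 gave 1.17 and Errfi1 1.08 in OTV:Malat1 against saline, each with an edgeR adjusted p of 0.970, and Errfi1 gave 1.35 between the carriers (edgeR adjusted p = 0.650). None of 6 genes of the respiratory chain had an unadjusted p under 0.05 by edgeR in any comparison, where 2.23% to 4.93% of all genes did.

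Synaptic genes were also without a call. Of 23 glutamate receptor genes 20 were tested, and by edgeR none had an unadjusted p under 0.05 in any of the 4 comparisons, where 2.23% to 4.93% of all genes did. Their log2 changes in OTV:Malat1 against saline were 13 above 0 and 7 below, with a median of 0.04. Of 18 potassium channel genes tested, Kcnb2, a delayed-rectifier subunit, was the only one at an unadjusted p under 0.05. It was at 112, 64.2 and 64.9 CPM in OTV:Malat1, 137 to 227 (median 154) in anti-TfR:Malat1 and 55.6 to 265 in saline. OTV:Malat1 thus overlapped saline and not anti-TfR:Malat1, and the share of all genes tested without such overlap was not counted. edgeR gave -0.97 against saline (adjusted p = 0.970) and -1.15 against anti-TfR:Malat1 (adjusted p = 0.442). Without the low-count filter the second value was -1.27 (adjusted p = 0.0130). Both values moved with the choice of nuclei: they were -0.44 and -0.21 with doublets kept, -0.17 and -0.22 in cluster 7, and -0.04 and -0.18 with no Slc17a7 minimum (0.00516 and -0.14 with batch as a block as well). At 10 or more Foxp2 UMIs they were -3.44 and -3.52 (edgeR adjusted p = 0.456 and 0.258). Of 21 synaptic adhesion genes tested, Lrrc4c gave 0.32 and 0.29 in OTV:Malat1 and anti-TfR:Malat1 against saline, and Nrxn3 gave -0.21 between the carriers (edgeR adjusted p = 0.996, 1.000 and 0.925).

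The smallest p-values belonged to a handful of genes, named here after their values were seen. Gm26749 lies on chromosome 17 (GRCm38, chr17:74575381-74617119, minus strand), is annotated as an antisense RNA and overlaps Birc6 on the other strand. It was at 48.8, 61.3, 36.5 and 55.6 CPM in saline, 32.4 to 64.6 (median 45.1) in anti-TfR:Malat1 and 8.65, 5.35 and 12.99 in OTV:Malat1, where the 3 values stand for 1, 1 and 2 UMIs. All OTV:Malat1 animals lay below all saline and anti-TfR:Malat1 animals. For 3 against 4 animals a full separation has an exact permutation p of 0.0571, the smallest possible. How many of the 4074 genes tested separated groups in this way was not counted. Reads of the RNA and of Birc6 can be told apart only by strand, and whether strand was used in counting is not given in the sources used here. edgeR gave -2.51 against saline (SE 0.555, adjusted p = 0.342) and -2.36 against anti-TfR:Malat1 (SE 0.539, adjusted p = 0.261). In all nuclei of cluster 7 the values were -0.10 and 0.06.

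Lrrk2, a large kinase gene on chromosome 15 (chr15:91673175-91816120), was at 112, 80.7, 54.7 and 55.6 CPM in saline and 25.9, 32.1 and 32.5 in OTV:Malat1, and again the groups did not overlap. The OTV:Malat1 values stand for only 3, 6 and 5 UMIs, and the saline values for 96, 25, 6 and 7. edgeR gave -1.52 against saline (adjusted p = 0.473) and -1.61 against anti-TfR:Malat1 (adjusted p = 0.261), and -0.47 against saline in cluster 7. Between the carriers its adjusted p was 0.0130 without the low-count filter and 0.0139 with the replicate block. Glcci1, named for its induction by glucocorticoids, was at 99.98, 93.6, 63.9 and 63.5 CPM in saline and 216, 149.8 and 129.9 in OTV:Malat1. It was at 131, 135, 163 and 169.9 in Malat1 ASO and 109.5 to 151 (median 132) in anti-TfR:Malat1. Every animal of the 3 dosed groups thus lay above every saline animal. For Lrrk2 and Glcci1 alike, the share of all 4074 genes tested whose groups did not overlap was not counted. edgeR gave 0.86, 0.56 and 0.75 for OTV:Malat1, anti-TfR:Malat1 and Malat1 ASO against the same saline animals (adjusted p = 0.593, 1.000 and 0.999), 0.30 between the carriers (adjusted p = 0.925), and 0.13 for OTV:Malat1 in cluster 7. For Gm26749, Lrrk2 and Glcci1 the difference from saline was smaller over all nuclei of cluster 7 than in the selected ones.

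The 11 oligodendrocyte genes together had their highest mean in OTV:Malat1. They summed to 212 ± 100.1 CPM for OTV:Malat1, 139 ± 52.7 for anti-TfR:Malat1, 172 ± 40.3 for the free ASO and 173 ± 25.9 for saline (SD). The range was 135 to 192 CPM in saline and 110 to 310 in OTV:Malat1, so the groups overlapped. Mbp gave a log2 difference of -0.33 between OTV:Malat1 and saline (edgeR adjusted p = 0.999). The part of such RNA in the Malat1 values above was not tested.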

How the data were processed

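Single-nucleus RNA was measured in the posterior brain of 17 mice. Frozen tissue was dounced and nuclei were sorted on DAPI into 10x droplet chemistry, per the labels' protocols. The authors deposited UMI counts per gene and nucleus as a whole-number matrix, with metadata whose cell type, doublet, cluster, batch and animal columns were used as deposited and 12 further columns were not used. The submitters' processing notes name mm10, Cell Ranger 6.0.1 and Seurat 4; the sources used here do not give filters on nuclei. The matrix held 1099241149 UMIs. Gene positions are from GENCODE M21 (GRCm38), which matched 25511 of 26131 gene names. UMIs of the selected nuclei were summed per animal, and edgeR 4.0.16 (quasi-likelihood test, filterByExpr, TMM, all 17 animals, Benjamini-Hochberg adjustment over genes, threshold 0.05) was run in R 4.3.3, after being tested on simulated data. Exact permutation tests over animals, two-sided, used log2(CPM + 1) or the value named. Levels across cell classes are means over animals weighted equally. Each animal is 1 sample, so nuclei were never counted as replicates. DESeq2 1.42.0, other scalings, filters, selection limits, blocks and left-out animals were run as alternatives. The selected nuclei and the 30 gene lists were chosen with earlier results of these data known. Named genes are Malat1, Neat1, Tfrc, genes past the threshold, up to 4 of the most abundant members of a list, and the 25 highest and 10 lowest ratios to other excitatory nuclei. Any other gene was named after its values were seen, as were those with an unadjusted p under 0.05. Some withheld items are not reported here. No pairing was used: sample numbers in the labels are not stated to mark a shared litter or day.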

Additional observations from a re-analysis of the deposited data

Results flagged for a closer look

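Within groups of 4 to 10 animals, 57 sets of values were searched for an animal whose gap to the nearest other exceeded Dixon's 95% critical value, which chance exceeds in about 1 set in 20. The search marked 5 values. The 10th percentile of Malat1 in saline replicate 4 was 30 UMIs per 1000, against 54.4 to 57.4 in the other saline animals. The log2 difference of Malat1 between Foxp2-positive and other excitatory nuclei was -0.17 in saline replicate 2, against -0.28 to -0.26 in the others, and -0.11 in Malat1 ASO replicate 1, against -0.36 to -0.32. Malat1 ASO replicate 1 gave 55 selected nuclei, against 24 to 29 in its group, and 0.794% of its neurons were selected, against 0.297% to 0.320%. That animal belonged to batch 1, as did the saline animal with the most selected nuclei, and saline replicate 4 belonged to batch 4.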

How the results depend on the processing

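Of 912 values under alternative settings, 858 kept their direction and their side of the threshold, or a count within 1.5 times, 7 came past a threshold, 42 changed sign and 5 counts moved. The causes were not tested. The 5 counts that moved from 0 calls were these. Without the low-count filter edgeR called 1 for anti-TfR:Malat1 and 2 for Malat1 ASO against saline, and 5 between the carriers, Kcnb2 and Lrrk2 among them. With doublets kept it called 2 for OTV:Malat1 against saline. Over all groups, samples that share a number in the labels did not deviate together (median r -0.00181 over 21 pairs, -0.0721 to 0.129). The numbers were therefore not used as a pairing. For saline and Malat1 ASO, however, the number is also the batch, and their same-number pairs had r of 0.129, -0.00715, 0.0919 and 0.105. Pairs of the same batch had a median r of 0.0411 over all groups, and pairs of different batches -0.0219. With the replicate block, the last of the 5, edgeR called 2 genes between the carriers, Lrrk2 among them, and gave Malat1 -0.54 (adjusted p = 0.532) for OTV:Malat1 against saline, -0.52 between the carriers, and -0.02 for both other groups against saline.

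Leaving out 1 animal at a time, Malat1 by edgeR ran from -0.64 to -0.32 for OTV:Malat1, from -0.26 to 0.000656 for anti-TfR:Malat1 and from -0.19 to 0.11 for Malat1 ASO against saline. Its log2 difference by animal means ran from -0.63 to -0.25, from -0.29 to 0.000516 and from -0.23 to 0.14 in the same comparisons, from -0.45 to -0.15 between the carriers (past the threshold without anti-TfR:Malat1 replicate 1) and from -0.24 to 0.0240 for anti-TfR:Malat1 against Malat1 ASO. For OTV:Malat1 against Malat1 ASO it ran from -0.57 to -0.21. The gap to other excitatory nuclei ran from -0.00455 to 0.0386 for anti-TfR:Malat1, the share from -0.94 to 0.39 points for OTV:Malat1, and the 10th percentile from -0.18 to 0.22 for Malat1 ASO against saline and from -0.85 to -0.40 between the carriers. Against saline the share ran from 0.038 to 1.38 points for Malat1 ASO and from 1.14 to 2.58 for anti-TfR:Malat1. Between the carriers the share ran from -2.85 to -1.37 points. Without batch 1, Malat1 was 0.0354 for anti-TfR:Malat1 against saline, 0.11 against Malat1 ASO, and -0.42 between the carriers. The value between the carriers left out only anti-TfR:Malat1 replicate 1, so it repeats the result without that animal. Against Rorb-positive nuclei the gap was -0.0918 for anti-TfR:Malat1 and 0.26 between the carriers. The share within batches was 0.39 points for OTV:Malat1; thinned, it was -0.62 for anti-TfR:Malat1, -0.80 for Malat1 ASO and 0.00333 between the carriers; as a percentage of neurons it was -0.19 for Malat1 ASO. For Malat1 ASO the 10th percentile was -0.0189 and -0.0308 after thinning to 500 and 2000 UMIs, and the 25th was -0.00834. Single genes changed sign in larger sets of nuclei: Kcnb2 to 0.00516 and Glcci1 to -0.00809 (OTV:Malat1 against saline, no Slc17a7 minimum, batch block); Glcci1 to -0.0317 and -0.0517 for anti-TfR:Malat1 and to -0.00214 and -0.00171 for Malat1 ASO without that minimum, and to -0.0279 and -0.0296 for Malat1 ASO in cluster 7; Gm26749 between the carriers to 0.0416 and 0.0381 without the minimum and 0.0608 and 0.0348 in cluster 7, each pair without and with the batch block. Alternatives on the Slc17a7 minimum, on cluster 7 and on batch 1 were chosen after seeing the data. With 19 to 105 nuclei per animal, depth limited the genes tested to 4074.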
